A study of Homo sapiens with 6 samples.

Results

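MHC class II molecules, their chaperones and CIITA were followed across the open chromatin of HLF cells, a line derived from a human liver tumor. The 10 genes were CIITA, HLA-DRA, HLA-DRB1, HLA-DQA1, HLA-DQB1, HLA-DPA1, HLA-DPB1, HLA-DMA, HLA-DMB and CD74, a list given by name, with no threshold on measured values, but drawn up with earlier results of these data known. Any ATAC-seq peak region in the body of one of these genes, within 5 kb of it, or within 1 kb of any of its annotated transcription start sites was taken. After regions of the 6 libraries that shared at least 1 bp were merged into sites, 40 of 166021 sites belonged to these genes. ATAC-seq reads out open chromatin through the cuts of a transposase, so it measures accessibility and not transcription or protein. The groups were HLF cells given the vehicle DMSO and HLF cells given 5 µM SNDX-5613 (revumenib), a small molecule that blocks the binding of menin to the histone methyltransferase MLL1, with 3 libraries in each. The labels give 24 h of treatment for every library, while the study's methods give a longer one, so the duration is uncertain. All 6 libraries came from 1 cell line, and whether they were prepared in 1 batch was not tested. The study's methods describe a replicate as 1 dish divided between treatment and control, while the labels give only replicate numbers, so p-values measure the spread between dishes of 1 line.

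SNDX-5613 replicate 3 was far shallower than the other libraries. Its list held 40568 regions, against 88026 to 113675 in the other 5, and its genome-wide background pileup, a relative measure of depth, was 0.211 against 0.997 to 1.51. The weakest summit called in it stood 14.2 times above its background, whereas the other libraries called summits from 4.60 to 6.02 times above theirs. Results that rest on this library are therefore given with and without it. Among markers, all 6 mesenchymal genes (VIM, CDH2, FN1, ZEB1, SNAI2 and AXL) had a promoter peak in every library, as had the epithelial genes CDH1 and EPCAM, while KRT19 had none. The hepatocyte genes ALB, APOA1 and HNF4A had a promoter peak in none, SERPINA1 in 2 libraries and TTR in the 5 deeper ones. The blood cell genes PTPRC, SPI1, MS4A1, CD79A and CD3E had a promoter peak in none, while CD14 and CSF1R had one in the 5 deeper libraries, PAX5 in 2 and ITGAX in 1.

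Class II molecules are cell surface dimers that show peptides from endocytosed proteins to helper T cells. They are made by dendritic cells, B cells and macrophages, and in other cells mainly after interferon gamma. Their promoters carry an X box, bound by the RFX complex, followed by a Y box, an inverted CCAAT sequence bound by the trimeric factor NF-Y. CIITA is a coactivator that does not itself bind DNA but docks on these factors, and its level is known to govern class II transcription.

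The stretches upstream of the start site are shown for 7 genes because they hold letters of these boxes and lie under or beside the peaks described next. They were taken from RefSeq promoters (GRCh38.p14), which were matched for 8 of the 10 genes, with no entry for HLA-DRA or CIITA. They are reference sequence and not the alleles of HLF cells. Bases inside an exon of any annotated protein-coding transcript were left out, and for HLA-DPA1 this left no stretch to show. Sequences read 5′ to 3′ on the gene's own strand and start 140 bases before the RefSeq start. Capitals mark each CNAGNNA, the letters of the X box that these promoters share, read on the gene's strand, and each ATTGG or CCAAT, the Y box in its 2 orientations. In CD74 a pair of CNAGNNA matches adjoin and the CCAAT, at -53 from the start and inside an annotated exon, is not in the stretch shown, and in HLA-DMB a CNAGNNA overlaps the CCAAT.
HLA-DRB1, chr6:32589849-32589988, minus strand: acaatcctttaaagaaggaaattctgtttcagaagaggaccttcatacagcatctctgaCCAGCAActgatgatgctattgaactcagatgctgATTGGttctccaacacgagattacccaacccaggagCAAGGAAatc
HLA-DQA1, chr6:32637266-32637400, plus strand: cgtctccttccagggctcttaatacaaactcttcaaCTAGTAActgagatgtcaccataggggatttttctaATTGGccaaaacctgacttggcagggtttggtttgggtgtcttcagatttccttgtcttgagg
HLA-DQB1, chr6:32666685-32666797, minus strand: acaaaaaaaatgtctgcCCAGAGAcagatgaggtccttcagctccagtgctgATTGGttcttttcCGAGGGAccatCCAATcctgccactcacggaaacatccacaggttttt
HLA-DPB1, chr6:33075850-33075989, plus strand: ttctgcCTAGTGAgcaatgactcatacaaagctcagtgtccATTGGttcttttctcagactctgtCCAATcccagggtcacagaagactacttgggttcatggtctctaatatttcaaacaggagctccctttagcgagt
HLA-DMA, chr6:32953123-32953237, minus strand: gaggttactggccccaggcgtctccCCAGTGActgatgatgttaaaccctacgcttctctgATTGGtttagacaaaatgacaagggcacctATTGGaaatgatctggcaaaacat
HLA-DMB, chr6:32941029-32941168, minus strand: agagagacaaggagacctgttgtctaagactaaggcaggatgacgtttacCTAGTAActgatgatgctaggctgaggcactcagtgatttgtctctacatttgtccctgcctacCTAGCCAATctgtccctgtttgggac
CD74, chr5:150412970-150413050, minus strand: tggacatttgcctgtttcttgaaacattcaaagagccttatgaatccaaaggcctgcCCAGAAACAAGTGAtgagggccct

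An ATTGG began 35 or 36 bases after the start of a CNAGNNA in HLA-DRB1, HLA-DQA1, HLA-DQB1, HLA-DPB1 and HLA-DMA. Across 35116 RefSeq promoters, searched over the 250 bases before the start, 32.0% held CCAAT or ATTGG, 56.4% held CNAGNNA, and 6.52% held CNAGNNA followed after 20 to 80 bases by CCAAT or ATTGG. Only 0.120% of them, 42 promoters, held the pair at the 35 or 36 base spacing. The letters and the spacing were set after the promoters of these genes had been read, so the contrast is a description. Besides the 5 genes named, the 42 included HLA-DOA and HLA-DRB5. HLA-DMB had its CCAAT 68 bases after the CNAGNNA, CD74 had its CCAAT 23 bases after, and the 2 HLA-DPA1 entries held neither ATTGG nor CCAAT.

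The summits of the peaks lay close to these pairs, except in HLA-DRB1. Positions are in bases from the RefSeq start, negative upstream. In HLA-DQB1 the summits of the 6 libraries lay at -147 to -86, of which 2 fell between the boxes, 2 on the ATTGG, 1 on the CNAGNNA and 1 upstream of it. In HLA-DMA they lay at -108 to -71, with 4 of 6 between the boxes, 1 on the ATTGG and 1 downstream of it. In HLA-DMB they lay at -60 to -47, with 6 of 6 between its CNAGNNA and its CCAAT. That pair starts 68 bases apart, against 35 or 36 for the ATTGG pairs, so its count is not comparable with theirs. For HLA-DQA1, 3 of 5 summits fell between the boxes, 1 on the ATTGG and 1 upstream of the CNAGNNA. For HLA-DPB1, 0 of 5 fell between the boxes, 2 on the ATTGG and 3 just downstream of it. All 4 CD74 summits lay between its CNAGNNA and CCAAT. The HLA-DRB1 summits stood apart, at -19 to -9 and downstream of the ATTGG at -46, with 0 of 6 between the boxes.

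**Figure D1:**
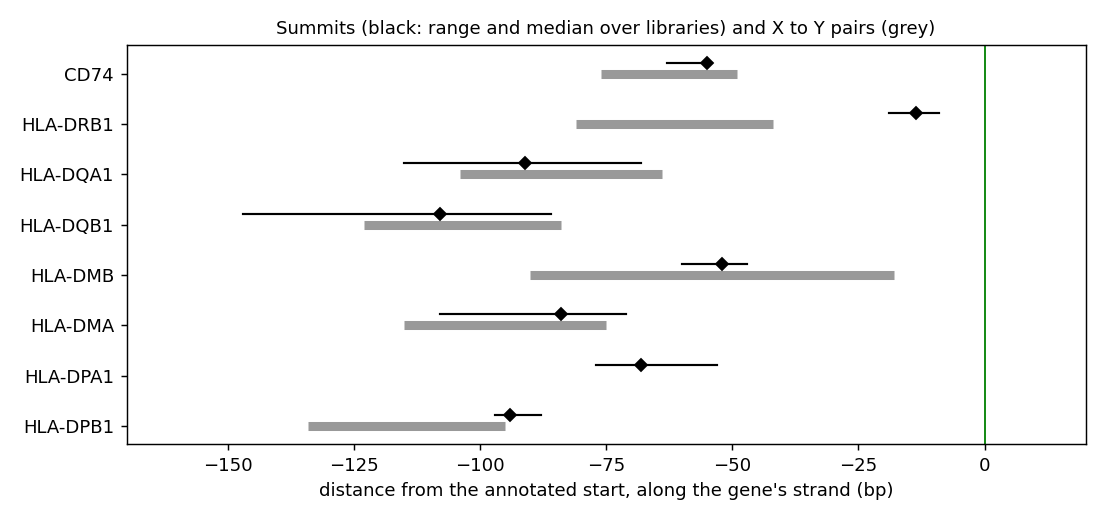
Position of promoter summits along the gene's strand, in bp from the RefSeq start (green line at 0). Black lines give the range and diamonds the median over the libraries that called the peak, and grey bars span the closest CNAGNNA and ATTGG or CCAAT pair. The median summit lies on the grey bar in CD74, HLA-DQA1, HLA-DQB1, HLA-DMB and HLA-DMA, just past it in HLA-DPB1, and nearer the start in HLA-DRB1. The HLA-DMB bar is the widest, its boxes starting 68 bases apart.

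Every one of the 10 genes had a promoter peak in all 3 DMSO libraries, a promoter peak being one with its summit within 1 kb of any annotated start. In the SNDX-5613 libraries it was present for 10 genes in replicate 1, 9 in replicate 2 and 5 in replicate 3. Of all 20033 protein-coding genes, 14453, 14982 and 14705 had a promoter peak in DMSO replicates 1, 2 and 3. In SNDX-5613 replicates 1, 2 and 3 these counts were 15224, 15111 and 12994. HLA-DRB1, HLA-DQB1, HLA-DPA1, HLA-DMA and HLA-DMB had a promoter peak in all 6 libraries. These were 5 of 10 genes, where 63.9% of 20033 protein-coding genes had such a peak. Without the shallow library it was 9 of 10 genes, against 69.7%, with CD74 the exception. None of the 10 genes had lost its promoter peak in all 3 SNDX-5613 libraries, where 22 of 20033 protein-coding genes had. The promoter calls missing from the treated group were 5 in replicate 3 and CD74 in replicate 2.

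The strength of each peak is given as the percentile of its -log10 p among the regions of its own library, a measure set within each library. Levels in the shorter list of SNDX-5613 replicate 3 are not comparable with the rest. Over the genes with a promoter peak in the 5 deeper libraries, the median percentile was 80 to 85.1 for the class II list in those libraries, 94.9 to 96.8 for MHC class I genes and 92.0 to 93.8 for all protein-coding genes. The promoters of the peptide-loading genes HLA-DMA and HLA-DMB stood highest among the 10 in all 3 DMSO libraries, and that of CIITA lowest.

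**Figure D2:**
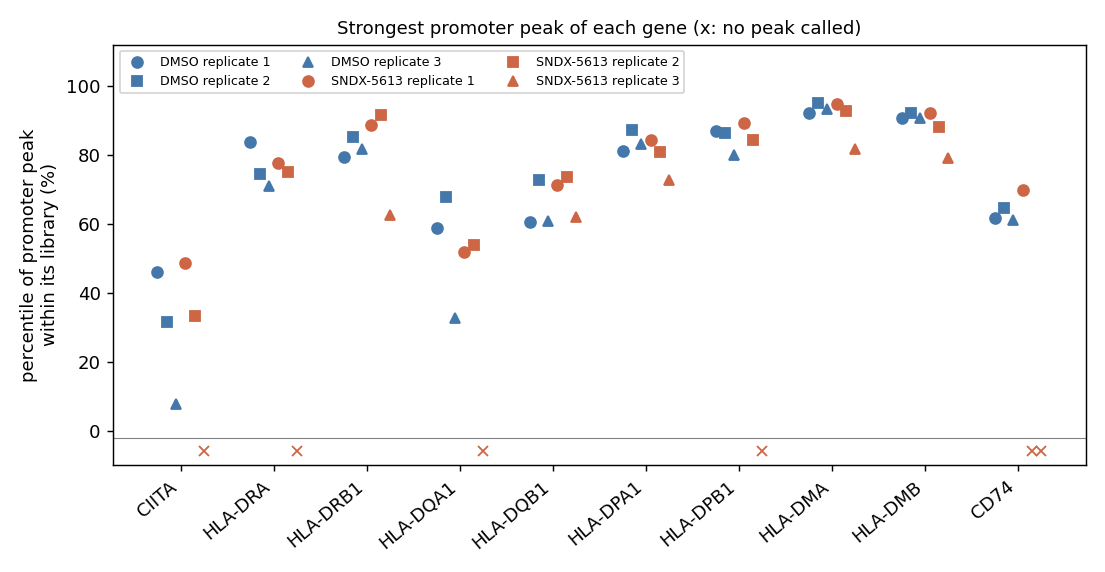
Percentile of the strongest promoter peak of each gene within its library's list, with 1 point per library and crosses where none was called. For HLA-DQA1 this can be the region further upstream. For CIITA in DMSO replicate 3 it was another region, chr16:10877556-10877701, at 7.7, while the promoter region described in the text was at 1.6. HLA-DMA and HLA-DMB lie at 79.0 or above in every library, CIITA at 48.5 or below where called, and all but 1 of the crosses belong to SNDX-5613 replicate 3.

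CIITA, on chromosome 16, had 12 sites, of which 3 were called in all 6 libraries and 4 in a single library. Its promoter peak, at chr16:10877040-10877289, had its summit at -82 from an annotated start, within an intron of the longer transcripts. The promoter summit had pileups of 18, 13 and 7 fragments in DMSO and 20 and 17 in SNDX-5613 replicates 1 and 2, and was not called in replicate 3. Scaled by each library's background, these came to 18.1, 9.96 and 4.84 in DMSO and 15.9 and 11.3 in SNDX-5613, so the groups overlapped. Carried over to the depth of SNDX-5613 replicate 3, they would be 1.02 to 3.81 fragments, around its lowest called pileup of 3. The strongest CIITA site without a promoter of its own was intronic, at chr16:10918729-10919051, at 50.2, 62.8 and 60.1 times background in DMSO and 52.4, 41.7 and 33.2 times in SNDX-5613, overlapping between groups. The other CIITA sites called in all 6 libraries, at its 3′ end and beyond, had their summits at the promoters of the neighbouring genes DEXI and CLEC16A.

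HLA-DRA encodes the alpha chain and HLA-DRB1 the main beta chain of the DR molecule. At HLA-DRA the promoter summit, at -83 from the start, stood 50.2, 27.6 and 24.2 times above background in DMSO and 31.7 and 27.8 times in SNDX-5613 replicates 1 and 2, inside the DMSO range. It was not called in replicate 3, where the same signal would give 5.10 to 10.6 fragments. The HLA-DRB1 promoter, at chr6:32589633-32590017, had pileups of 40, 56 and 51 in DMSO and of 63, 84 and 9 in SNDX-5613. Over background these were 40.1, 42.9 and 35.2 in DMSO and 50, 55.6 and 42.7 in SNDX-5613. SNDX-5613 replicates 1 and 2 were above every DMSO library, and replicate 3 fell just under DMSO replicate 2.

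In the 5 deeper libraries the DQ genes had the weakest chain promoters by summit pileup over background. HLA-DQA1, its alpha chain, had a peak over the boxes in 5 libraries, at 9.03, 9.96 and 8.98 times background in DMSO and at 11.1 and 13.9 times in SNDX-5613 replicates 1 and 2. All these values were below the 14.2 times needed for a call in replicate 3, which had none. A region further upstream, at chr6:32627980-32628155 and at the start of a longer HLA-DQA1 transcript, reached 22.1 and 22.2 times background in DMSO replicates 1 and 2 and 14.3 and 8.61 times in SNDX-5613 replicates 1 and 2, and was not called in the other 2 libraries. It was the stronger of the HLA-DQA1 promoter regions in DMSO replicates 1 and 2 and SNDX-5613 replicate 1. HLA-DQB1, the beta chain, had its promoter peak in all 6 libraries, at 23.1, 26.1 and 18.0 times background in DMSO and at 27.0, 25.8 and 47.4 times in SNDX-5613. Its highest value came from SNDX-5613 replicate 3, where it rested on a pileup of 10.

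The DP genes lie head to head. The HLA-DPA1 peak, at chr6:33073489-33073822, lay at an annotated start inside the gene, whereas its canonical start had a peak in SNDX-5613 replicate 1 only, at 10.3 times background. At the former, for the alpha chain, the summit stood 58.2, 62.8 and 49.8 times above background in DMSO and 57.1, 44.4 and 71.1 times in SNDX-5613. At HLA-DPB1, the beta chain, it stood 74.2, 62.1 and 44.9 times above in DMSO and 75.4 and 52.3 times in SNDX-5613 replicates 1 and 2. The HLA-DPB1 peak was not called in SNDX-5613 replicate 3, although the other libraries would give 9.48 to 15.9 fragments there and the neighbouring HLA-DPA1 peak was called with 15. Whether this gap is more than sampling in 1 shallow library was not tested.

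HLA-DMA and HLA-DMB form the DM molecule, which loads peptides onto class II in endosomes. The HLA-DMA promoter had pileups of 111, 164 and 149 in DMSO and 143, 132 and 20 in SNDX-5613, which over background were 111, 126 and 103 in DMSO and 113, 87.4 and 94.8 in SNDX-5613. The HLA-DMB promoter stood 81.2, 85.8 and 71.2 times above background in DMSO and 78.6, 55.0 and 80.6 times in SNDX-5613. At both promoters SNDX-5613 replicate 2 was the lowest of the 6 libraries and the groups overlapped. That library was also lowest over all 32825 sites with a pileup in every library, at a median of 47.0 times background. The others had medians of 51.1 to 59.0, and the values over background given here were not adjusted for this difference. HLA-DMA counted 8 sites, but 5 of them lay at the gene BRD2, which long annotated HLA-DMA transcripts reach. The 1 site called in all DMSO and no SNDX-5613 libraries was among these, in an exon of BRD2 at chr6:32970845-32970960, with fold enrichments of only 1.57, 1.85 and 1.85 over a high local background.

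CD74, the invariant chain that guards the peptide groove during transport, lies on chromosome 5. Its strongest region was not the promoter but an intronic site 2791 bases downstream of the nearest start, at chr5:150409676-150410184. That site stood 162, 164 and 120 times above background in DMSO and 158, 105 and 147 times in SNDX-5613. The promoter peak stood 51.2, 42.9 and 38.7 times above in DMSO and 48.4 times in SNDX-5613 replicate 1, with no call in replicates 2 and 3. The lists hold no values below their calling threshold, so the absence of a call, also in the deeper replicate 2, gives no level.

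**Figure D3:**
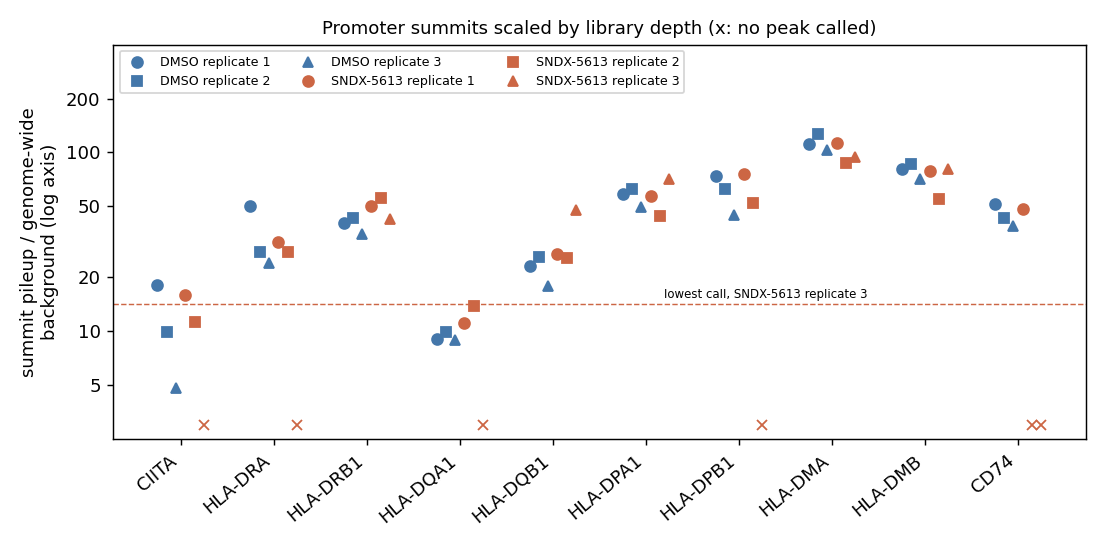
Summit pileup at the promoter divided by the genome-wide background of its library, at the promoter described in the text, on a log axis, with 1 point per library and crosses where no peak was called. The dashed line marks 14.2, the weakest call in SNDX-5613 replicate 3. HLA-DQA1 lies wholly under it, and HLA-DRB1 in SNDX-5613 replicates 1 and 2 lies above its DMSO values.

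Between DMSO and SNDX-5613, few sites of these genes separated the groups. Of the 40 sites, 0 were gained, meaning called in every SNDX-5613 library and no DMSO library, where 0.147% of all sites were. The 1 lost site stands against 1.18% of all sites lost. Without the shallow library 0 member sites were gained against 2.43% of all sites, and 1 of 40 was lost against 1.23%. Presence calls of 3 against 3 libraries cannot go below an exact p of 0.1, so no test was made on them.

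For levels, ranks were taken among the 33405 sites that every library called, 13 of which belonged to these genes. Only the HLA-DRB1 promoter had ranks that did not overlap between groups, 1 site higher and 0 lower, while 8.54% of all sites were higher and 8.08% lower without overlap. Its rank percentile was 49.3, 51.7 and 50 in DMSO and 64.2, 76.0 and 55.4 in SNDX-5613, or 50.3 ± 1.23 against 65.2 ± 10.3 (SD, n = 3 each, exact two-sided permutation p = 0.1, the smallest possible). By limma on the ranks of all 33405 sites its adjusted p was 0.508. Ranked by fold enrichment over the local background instead, the difference turned to -6.88. The HLA-DQB1 promoter averaged 21.5 ± 4.51 in DMSO and 37.3 ± 15.5 in SNDX-5613 (SD, n = 3 each, exact two-sided permutation p = 0.2), a difference of 15.8 that came to 9.62 without the shallow library, whose value was 54.6. The intronic CIITA site averaged 58.2 ± 8.52 and 44 ± 15.1 (SD, n = 3 each, exact two-sided permutation p = 0.3). Its difference of -14.2 came to -3.14 without the shallow library, whose value was 26.8. The HLA-DMA promoter averaged 80.9 ± 1.89 and 79.9 ± 2.74, and the intronic CD74 site 87.5 ± 4.79 and 87.4 ± 4.91 (SD, n = 3 each), differences smaller than the spread between libraries.

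limma with Benjamini-Hochberg adjustment called 0 of the 13 member sites. Of the 13, 0 had an unadjusted p under 0.05, where 3322 of all 33405 sites had. After adjustment limma called 0.195% of all sites, 59 higher and 6 lower in SNDX-5613. With libraries of the same number taken as pairs, 6 of the 13 sites had all 3 differences of 1 sign, where 32.7% of all sites had. limma with the replicate block called 0 of the 13 and only 0.00898% of all sites. The median difference in rank percentile, SNDX-5613 minus DMSO, was -0.0667 over the 13 sites and -0.0933 over all.

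**Figure D4:**
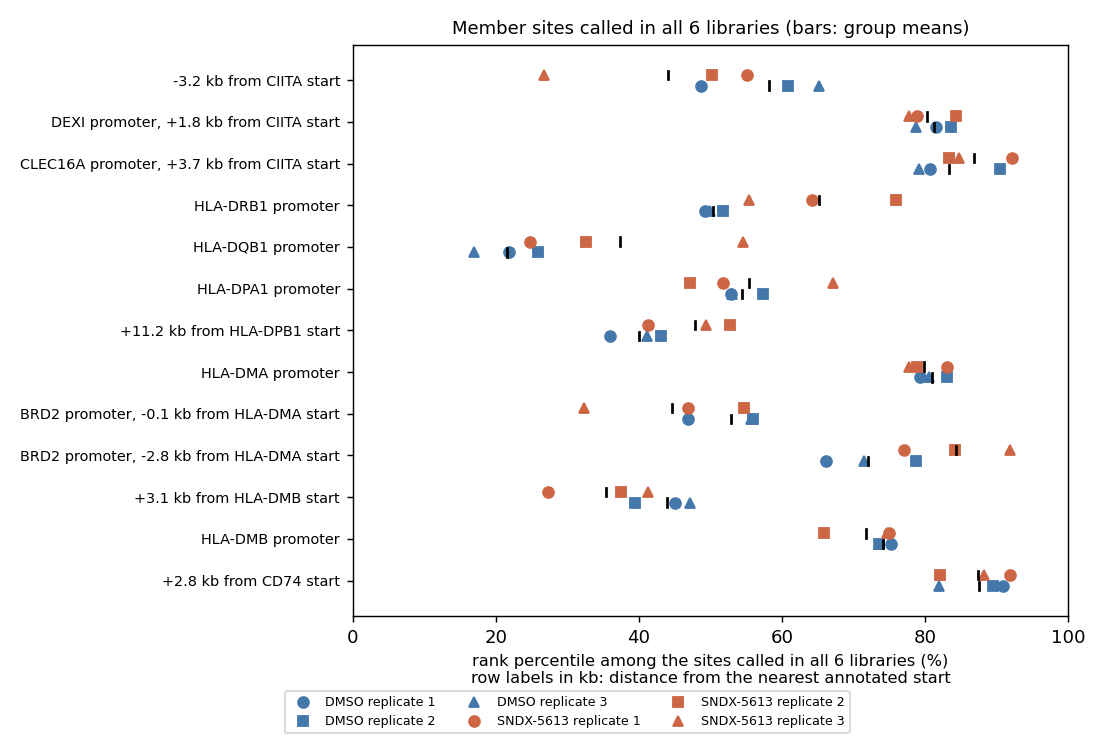
Rank percentile of the 13 sites called in all 6 libraries, with 1 point per library, DMSO in blue and SNDX-5613 in orange, and bars at group means. HLA-DRB1 is the only row whose groups do not overlap, with DMSO at 49.3 to 51.7 and SNDX-5613 at 55.4 to 76.0.

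In the 5 deeper libraries, 24 member sites could be ranked, among 59985. There, 2 were higher in SNDX-5613 without overlap, the HLA-DRB1 promoter and the HLA-DQA1 promoter region over the boxes, where 14.3% of all sites were. The HLA-DRB1 promoter went from 69.8, 71.9 and 70.9 in DMSO to 79.9 and 86.6 in SNDX-5613, and the HLA-DQA1 promoter from 5.64, 7.77 and 8.62 to 12 and 28.3. A further 3 were lower, where 14.4% of all sites were: the HLA-DPA1 promoter, with a mean difference of -2.98 percentile points against 0.933 over all 6 libraries, a site 3117 bases downstream of an HLA-DMB start, and an exonic CIITA site at chr16:10930733-10930970. With 3 against 2 libraries the smallest exact p is again 0.1, and limma called 0 of all sites in these 5 libraries, with 6865 at an unadjusted p under 0.05. There the limma adjusted p was 0.357 for HLA-DRB1, 0.371 for HLA-DQA1 and 0.373 for the exonic CIITA site. The members' shares were thus at or under those of all sites in both directions. The upstream HLA-DQA1 region, chr6:32627980-32628155, was not called in DMSO replicate 3, so it was not ranked. It stood 22.1 and 22.2 times above background in DMSO replicates 1 and 2 and 14.3 and 8.61 times in SNDX-5613 replicates 1 and 2. HLA-DRB1 and the DQ genes are among the most variable human genes and HLA-DRB1 has a near copy, HLA-DRB5. How well reads from the alleles of HLF cells aligned to the reference was not tested.

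Most partners of the class II genes had a promoter peak in every library. The promoters of RFX5, RFXAP, RFXANK, NFYA, NFYB, NFYC and CREB1, which encode the factors on the X and Y boxes, had a peak in all 6 libraries. RFX5 lay at a percentile of 98.9 to 99.8. In the 6 libraries 0 of these 7 promoters had ranks apart between groups, and in the 5 deeper ones 1 had, NFYB, which was higher in SNDX-5613. All 7 genes of the interferon gamma path also had a promoter peak in every library. Of these, JAK2 and IRF1 ranked higher in SNDX-5613 without overlap and IFNGR2 and USF1 lower, and none passed limma, with adjusted p of 0.457 to 0.749. In the 5 deeper libraries 3 of the 7 were higher and 2 lower. Over all sites, 8.54% were higher and 8.08% lower without overlap in the 6 libraries. In the 5 deeper libraries these shares were 14.3% and 14.4%. Whether lists of so few genes depart from these shares was not tested. Among 8 genes of class II processing and editing, 6 showed a promoter peak in every library, while CTSS, cathepsin S, had one only in DMSO replicate 2. MARCHF1, a ubiquitin ligase that removes class II from the surface, was the 1 that ranked higher without overlap in the 6 libraries (limma adjusted p = 0.378). In the 5 deeper libraries MARCHF1, CTSL and IFI30 ranked higher and LGMN lower, beside the same shares of all sites. Of the other class II chains, HLA-DQA2 had no promoter peak, HLA-DQB2 had weak ones in SNDX-5613 replicates 2 and 3, and HLA-DRB5 went from percentiles of 24.4, 33.7 and 46.4 in DMSO to 57.9 and 51.9 in SNDX-5613 replicates 1 and 2, with no call in replicate 3.

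MHC class I genes served for comparison. A promoter peak was called in every library for 11 of 13 genes, and 2, PSMB8 and PSMB9, ranked higher in SNDX-5613 without overlap, on a shared promoter site (limma adjusted p = 0.330). Over all sites 8.54% ranked higher without overlap. Between HLA-DRA and HLA-DPB1 the deeper libraries held 63.1 to 80 regions per Mb, and between HLA-F and HLA-B 82.1 to 99.1, while chromosome 6 as a whole held 30.7 to 40.4. By promoter percentile over the 6 libraries, the genes most like HLA-DMA, the member with the highest median, were ENSG00000248993, which shares its start region, OXR1 and MTERF1, with mean absolute differences of 0, 0.354 and 0.486 points.

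The authors' consensus sets, 1 per group, held 31 member regions in DMSO and 33 in SNDX-5613. Of these, 1 was in the DMSO set only, against 11.7% of all its regions, and 3 were in the SNDX-5613 set only, against 11.1%. The DMSO region was the lost site in BRD2. The SNDX-5613 regions lay upstream of HLA-DQB1, in an exon of CIITA, and over a CIITA start at which no single list had a peak. The HLA-DQB1 region had a peak in SNDX-5613 replicate 1 but also in DMSO replicate 3. The region in the CIITA exon had one in SNDX-5613 replicates 1 and 2 and also in DMSO replicate 3.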

How the data were processed

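ATAC-seq peak lists of 6 HLF libraries were analysed, grouped by their labels. Per the study's methods the authors used the Omni-ATAC protocol, aligned reads with Bowtie2 and marked duplicates with Picard. The submitters' processing notes list Trim Galore 0.6.7, Bowtie2 2.3.4.1, Picard 2.20.0, SAMtools, deepTools 3.5.4, MACS2 and hg38. A shift of reads for the transposase cut is not given in the sources used here, and would move summits by a few bases. Each deposited list gives, per summit, the fold enrichment (a ratio) over the local background and the -log10 p and -log10 q. The deposited score was not used. The deposited consensus sets give a combined -log10 p. The authors built the sets across replicates with RMSPC and tested counts over peaks with DESeq2, a test not repeated here because peak lists carry no counts. The labels give 24 h of treatment and the study's methods 4 days.

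Summits sharing a region were merged and the strongest kept. Regions on the autosomes, X and Y that shared 1 bp or more formed a site, annotated with GENCODE release 44. Fold and p were solved for a whole-number pileup, found within 0.02 for 100.0% of eligible summits (-log10 p below 300 and fold above 1.2), and the most frequent background gave the relative depth. Its values were 0.997, 1.305 and 1.447 in DMSO and 1.26, 1.51 and 0.211 in SNDX-5613. Sites called in all 6 libraries were ranked within each by -log10 p. Ranks went into exact permutation tests, two-sided, and, as normal scores, into limma 3.58.1 (R 4.3.3), adjusted over all such sites at 0.05. This was tested on simulated data. Alternatives were a -log10 q of at least 3, equal numbers of regions (40568), 50% cover, 3 kb promoters, no 5 kb flank, basic transcripts, ranking by fold, leaving out each library and a replicate block. Named genes were the 10 members, fixed lists of class II partners, class I genes and cell type markers, and the 3 genes nearest in promoter percentile to the member with the highest median. Some marker genes are not reported here. Members and lists were chosen with earlier results of these data known.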

Additional observations from a re-analysis of the deposited data

Results flagged for a closer look

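A region over an annotated CIITA start was in the SNDX-5613 consensus set only, at chr16:10878646-10879048, with a combined -log10 p of 30.75. It was flagged because it appears in data outside the main measurement, and 0 of the 6 lists had a peak there. Of all 86725 SNDX-5613 consensus regions, 926 (1.07%) had no peak in any of the 6 lists, against 474 of 87417 (0.542%) in the DMSO set. How such regions entered the sets was not tested.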

How the results depend on the processing

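The count of 0 gained member sites and of 0 limma calls held under every alternative run for them. The 5 genes with a promoter peak in all libraries became 1 when a library had to cover 50% of a site and 8 with a 3 kb distance, and 5 to 9 when a library was left out, 9 without SNDX-5613 replicate 3. The 40 member sites became 21 with equal numbers of regions, and 37 to 40 with a library left out. The 1 lost site became 0 at a -log10 q of at least 3, with equal numbers of regions, without the 5 kb flank and with basic transcripts, and 1 to 2 with a library left out, 2 without SNDX-5613 replicate 1. The 1 site with ranks apart became 2 with equal numbers of regions, 0 with 50% cover, and 2 by summit pileup, a ranking chosen after seeing the data. It became 1 to 6 with a library left out, where fewer libraries make separation easier. The count was 3 and 6 without DMSO replicates 1 and 2, and 5, 2 and 5 without SNDX-5613 replicates 1, 2 and 3. Without SNDX-5613 replicate 3, 24 member sites were ranked, and 14.3% of all sites were higher and 14.4% lower. Such shares are not given here for the other libraries left out, equal numbers, 50% cover or summit pileup. Those counts therefore cannot be set against all sites. With the replicate block, 6 of 13 sites had 3 differences of 1 sign, where 32.7% of all sites had. limma then called 0 of the 13 and only 0.00898% of all sites. Deviations of same-numbered libraries correlated at 0.0164, 0.000532 and 0.00698. The study's methods describe dishes divided between the groups, so whether the numbers mark pairs is uncertain.

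Ranking by fold enrichment reversed 6 of 13 site differences (SNDX-5613 minus DMSO, percentile points). These came to 8.58 at the DEXI promoter in the 3′ end of CIITA, -6.88 at the HLA-DRB1 promoter and -9.71 at the HLA-DPA1 promoter. They were -3.69 downstream of HLA-DPB1, 0.544 at the BRD2 promoter and 4.16 in the CD74 intron. The cause was not tested. With a library left out, the difference ran from -3.03 to 0.174 at the DEXI promoter, -2.99 to 4.97 at HLA-DPA1, -3.90 to 0.639 at the HLA-DMB promoter and -2.76 to 2.58 in the CD74 intron. Depth limits what SNDX-5613 replicate 3 can show.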
